A study of Danio rerio with 22 samples.

Results

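In germ cells of zebrafish larvae at 10 days post fertilization (dpf), 150 genes had Smart-seq transcript levels about 2.19 times as high in Z-hybrid as in W-hybrid fish. At 12 dpf by Smart-seq the mean levels of these genes in the hybrids lay within 0.2 of each other on a log2 scale. The genes were selected on their deposited TPM values (a length-scaled share of the transcripts in a library) for that pattern. On the log2 scale of TPM with 1 added, a gene was eligible when its mean in the 10-dpf Z-hybrid was at least 10 TPM, when every Z-hybrid library lay above every W-hybrid library at 10 dpf, and when the means of the hybrids differed by no more than 0.2 at 12 dpf. Of 32057 genes in the files, 8738 reached the minimum, 2065 of those were separated at 10 dpf and 1059 of those were inside the 12-dpf window, and the 150 with the largest 10-dpf difference were kept. The Smart-seq differences between the hybrids at 10 and 12 dpf are therefore a description of the choice, and the counts of calls given for them below were fixed by it and support nothing. Quartz-seq libraries at 12 dpf were not used by the rule. Of 149 genes tested there, 26 were called Z-higher and 20 W-higher (17.4% and 13.4%, beside 8.14% and 13.3% of all genes tested). The last genes kept were AFG2B, USP5 and CUEDC1, with Z minus W differences of 0.92 each. The first genes left out were smarca1, GATAD2A and GPHN, also with differences of 0.92.

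All fish were hybrids of the Nadia and Tupfel long-fin strains. The W-hybrid, presumptively all female, came from WW Nadia mothers mated with Tg(ziwi:GFP) fish in the Tupfel long-fin background. The Z-hybrid, presumptively all male, came from ZZ Nadia fathers and mothers of the same transgenic line. In this line the ziwi promoter drives GFP in germ cells. The strain of the mother thus differed between the hybrids, and its part cannot be told apart from that of the W locus. GFP-positive cells were sorted from gonads pooled over many larvae of a set body length, so a library is a pool of fish and not a single animal, and sex was inferred from the cross. Smart-seq HT was used for 3 W-hybrid and 3 Z-hybrid libraries at 10 dpf, for 4 and 4 at 12 dpf and for 2 libraries of trunk cells labelled 10 dpf, whose hybrid is not given. Quartz-seq was used for 2 W-hybrid libraries and 1 Z-hybrid library at 12 dpf, and for the same numbers at 14 dpf.

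Zebrafish larvae first form an undifferentiated gonad, and its germ cells then enter meiosis. The paper compared the stages of meiosis in germ cells of both hybrids and reports that meiosis advanced faster in the W-hybrid. The Nadia strain has kept a W-linked sex locus that laboratory strains have lost, so that the cross can predict sex before the gonad shows it. Germ cells at this age proliferate, and their transcripts serve general cell functions such as transcription, protein turnover and nuclear transport beside the specialised germline programme.

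Total counts lay between 13556577 and 37224647 per library. DDX4 (vasa), the defining germ cell marker, was between 826 and 5495 TPM in the 20 germ cell libraries and at most 0.09 TPM in trunk. Single markers of other cells were low in the germ cell libraries at 10 dpf. The gene amh was at most 0.47 TPM, gsdf at most 7.57 TPM, ptprc at most 7.72 TPM and krt4 at most 1.16 TPM. In trunk krt4 was at 5944 to 11576 TPM. Summed lists of genes for other cells were higher, and which of their genes made up the sums was not examined. At 10 dpf the summed TPM of 27 gonadal somatic cell genes was between 1098 and 1257 in the W-hybrid and between 767 and 1010 in the Z-hybrid. That of 33 muscle genes was between 496 and 606 in the W-hybrid and between 607 and 713 in the Z-hybrid. That of 27 epidermis genes was between 124 and 173 in the W-hybrid and between 105 and 117 in the Z-hybrid. Neural and glial genes, 22 in all, summed to between 269 and 793 TPM over the germ cell libraries and to between 127 and 162 TPM in trunk. None of the 150 genes belongs to these lists. At 12 dpf by Smart-seq the globin gene hbae3 was between 0.94 and 65.0 TPM in the Z-hybrid and between 1.48 and 9.71 TPM in the W-hybrid. By Quartz-seq at 12 dpf the neural gene ELAVL3 was at 21.7 TPM in the Z-hybrid and between 0.49 and 4.45 TPM in the W-hybrid. The part of other cells in the results was not tested. In such bulk libraries, fewer cells of a type and less RNA per cell cannot be told apart.

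At 10 dpf the difference of the 150 genes between the hybrids ranged from 0.92 to 2.56 on the log2 scale of TPM. Its median was 1.07, beside 0.12 for the 8738 genes at the minimum. Fitted on counts with edgeR, the log2 fold changes of the same genes ranged from 0.45 to 2.68, with a median of 0.95. The genes were of moderate abundance. Their mean TPM in the Z-hybrid ranged from 10.0 to 388, with a median of 20.2 beside 35.5 for all genes at the minimum. The separation was narrow for most of them: in 41 genes the lowest Z-hybrid library was more than 1.5 times the highest W-hybrid library, and in 4 genes more than 2 times. With edgeR's quasi-likelihood test on the counts, 131 of the 150 were called Z-higher (adjusted p under 0.05, at least 1.5-fold, over 5 TPM) and 0 W-higher, a count that the choice of genes fixed. These 87.3% stand beside 4.07% of all genes tested, 6.27% of genes at the 10-TPM minimum and 13.5% of the longest class of those (of 4 equal classes by gene length). W-higher calls were 3.06%, 5.31% and 0.504% of the same genes. The count of 131 fell to 17 when the fit held the 14 germ cell libraries of both ages made by Smart-seq, to 61 without W-hybrid replicate 1, to 72 without W-hybrid replicate 2 and to 74 without Z-hybrid replicate 1.

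The genes moved as a block from library to library. The mean log2(TPM + 1) over the 150 genes was 3.54, 3.07 and 3.95 in the W-hybrid libraries at 10 dpf and 4.89, 4.57 and 4.50 in the Z-hybrid libraries. Every Z-hybrid library was above every W-hybrid library, as the rule requires of each gene, and the W-hybrid libraries were spread more widely (SD 0.44 against 0.21, n = 3 each). W-hybrid replicate 2 was the lowest of its group for 138 of the 150 genes and replicate 3 the highest for 137. Z-hybrid replicate 1 was the highest of its group for 122 genes. The same held at 12 dpf, where the order of the libraries was not fixed by the rule: Z-hybrid replicate 3 was the lowest of 4 for 118 genes and replicate 1 the highest for 100, and W-hybrid replicate 4 was the lowest for 97. This order was not particular to the 150 genes. The mean of the other genes of the longest class was also lowest in 10-dpf W-hybrid replicate 2 (4.12) and highest in Z-hybrid replicate 1 (4.92). At 12 dpf it was lowest in Z-hybrid replicate 3 (4.11) and W-hybrid replicate 4 (4.28).

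**Figure D1:**
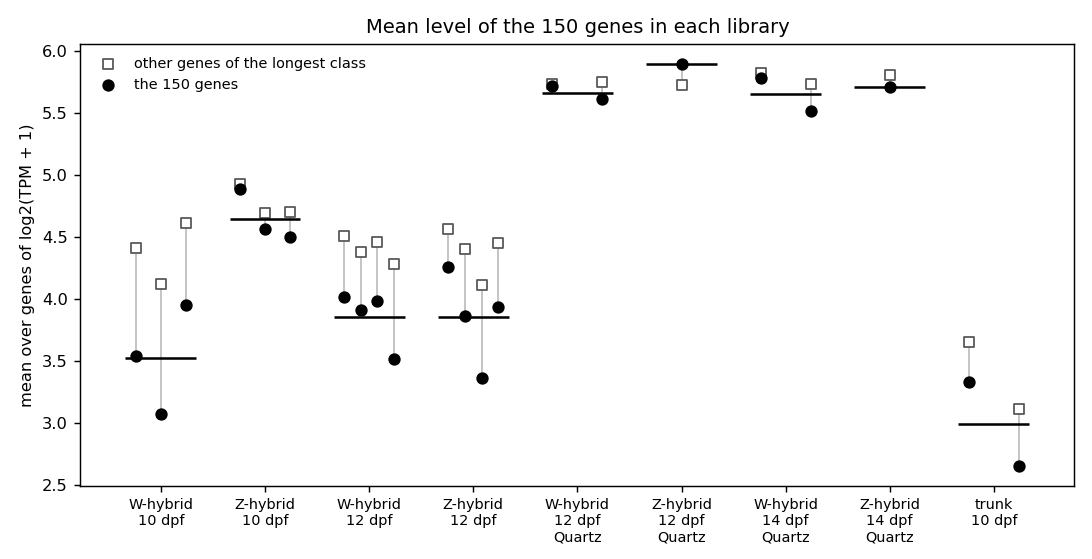
Mean log2(TPM + 1) of the 150 genes (filled circles, with the group mean as a line) and of the other genes in the longest length class (open squares), 1 pair of points per library, in the groups named on the x axis. The 10-dpf Z-hybrid libraries lie between 4.50 and 4.89, above the W-hybrid libraries at 3.07 to 3.95, the 12-dpf Smart-seq libraries of both hybrids overlap, and the Quartz-seq libraries lie between 5.52 and 5.90.

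For orientation, 107 of the 150 genes were given 1 of 16 roles by hand after the genes were known, and 43 were left without one. No role held a large share of the genes: the most filled were transcription factors and the transcription machinery with 15 genes, ubiquitin, UFM1 and proteasome genes with 14, and vesicle traffic and cytoskeleton genes with 11 each. The median 10-dpf difference of a role lay between 1.01 and 1.34, and some roles held only 2 genes. All genes were ranked on this difference and none lay under 0.92, so the closeness of the roles was largely fixed by the choice.

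Among transcription genes, TAF5L, a subunit of an acetyltransferase coactivator complex, was at 11.8, 7.03 and 12.1 TPM in the 10-dpf W-hybrid and at 41.9, 31.3 and 25.9 TPM in the Z-hybrid. At 12 dpf it was between 8.99 and 18.9 TPM in the W-hybrid and between 10.1 and 17.2 TPM in the Z-hybrid. All 8 libraries at 12 dpf were below the lowest 10-dpf Z-hybrid library. The forkhead factor foxo3b was at 4.13, 4.78 and 6.83 TPM in the 10-dpf W-hybrid and at 16.4, 20.6 and 12.6 TPM in the Z-hybrid. Its 8 libraries at 12 dpf lay within the narrow range of 5.67 to 7.0 TPM. POLR2B, the second largest subunit of RNA polymerase II, was at 28.4, 19.8 and 45.0 TPM in the W-hybrid and at 81.8, 66.1 and 63.8 TPM in the Z-hybrid at 10 dpf. The zinc finger factor SP3 is the symbol of 2 identifiers among the 150 genes, and reads that fit both could have been shared between them in quantification. That with the larger difference (ENSDARG00000001549) was at 5.89, 2.27 and 9.92 TPM in the W-hybrid and at 27.9, 11.8 and 16.2 TPM in the Z-hybrid at 10 dpf, with the lowest Z-hybrid library close to the highest W-hybrid library.

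Chromatin genes were 9 of the 150. TLK1, a kinase of chromatin assembly, was at 6.93, 4.63 and 9.96 TPM in the W-hybrid and at 20.6, 17.8 and 18.5 TPM in the Z-hybrid at 10 dpf. HDAC6, a deacetylase that acts on tubulin, was at 17.5, 14.1 and 18.9 TPM in the W-hybrid and at 42.3, 33.1 and 32.9 TPM in the Z-hybrid.

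Purine synthesis was represented by GART and PFAS, enzymes of the de novo pathway. GART was at 6.01, 4.06 and 12.3 TPM in the W-hybrid and at 24.6, 19.03 and 19.2 TPM in the Z-hybrid at 10 dpf, and PFAS at 9.41, 8.42 and 14.9 TPM and at 30.2, 20.2 and 20.2 TPM. In both genes W-hybrid replicate 3 was the highest of its group and Z-hybrid replicate 1 the highest of its own. NUP160, a scaffold component of the nuclear pore, was at 13.1, 6.44 and 22.7 TPM in the W-hybrid and at 56.7, 26.3 and 28.4 TPM in the Z-hybrid. The nuclear transport receptors TNPO3, XPO6 and IPO8 were also among the 150, with differences of 1.25, 1.06 and 0.93.

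Stress and death genes came as 7 members. The gene bbc3 (puma), which encodes a killer protein of the BCL2 family, was at 3.47, 3.02 and 4.53 TPM in the W-hybrid and at 7.65, 19.2 and 6.82 TPM in the Z-hybrid at 10 dpf. PHLDA3, which restrains AKT in mammals, was at 35.3, 41.2 and 29.5 TPM in the W-hybrid and at 57.6, 119 and 71.3 TPM in the Z-hybrid. In both, Z-hybrid replicate 2 was the highest library, which was so for 18 of the 150 genes. The sestrin gene sesn4, of a stress-responsive family, was at 9.27, 5.40 and 11.9 TPM in the W-hybrid and at 34.4, 26.3 and 19.2 TPM in the Z-hybrid. IFIH1 (MDA5), a sensor of double-stranded RNA, was at 5.44, 3.95 and 9.48 TPM in the W-hybrid and at 19.5, 17.1 and 13.4 TPM in the Z-hybrid. Its 12-dpf levels were between 5.64 and 17.9 TPM over both hybrids.

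Iron handling was represented by slc11a2, a ferrous iron carrier, and IREB2, an RNA-binding regulator of iron genes, with differences of 1.03 and 1.22. FBXL5, the ubiquitin ligase subunit that targets IREB2 in mammals, was also a member, at 21.4, 14.1 and 29.1 TPM in the W-hybrid and at 58.4, 44.1 and 38.7 TPM in the Z-hybrid at 10 dpf. In the ubiquitin group, the deubiquitinase ZRANB1 was at 5.77, 2.40 and 13.2 TPM in the W-hybrid and at 20.01, 21.1 and 15.3 TPM in the Z-hybrid. PSMD3, a subunit of the proteasome's regulatory particle, was at 69.8, 52.4 and 97.3 TPM and at 182, 148 and 109 TPM.

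Other members with large differences served transport and metabolism. HOOK3, which links cargo to the dynein motor, was at 2.08, 1.36 and 3.70 TPM in the W-hybrid and at 10.3, 10.2 and 9.52 TPM in the Z-hybrid at 10 dpf, the largest difference among genes with a symbol (1.76). AP3B1, a subunit of an endosomal adaptor complex, was at 7.37, 4.14 and 10.2 TPM and at 21.4, 18.8 and 19.4 TPM. HSD17B4, an enzyme of peroxisomal fatty acid oxidation, was at 8.34, 3.49 and 12.8 TPM and at 23.8, 19.6 and 17.8 TPM. For SLC27A1, a fatty acid transport protein, the 10-dpf Z-hybrid libraries were spread from 8.91 to 28.1 TPM and the lowest lay close to the highest W-hybrid library at 7.67 TPM. Other genes among the 20 with the largest difference (NELL2, ABCC5, YJEFN3, mtrf1 and CAP1) had differences from 1.36 to 1.43.

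**Figure D2:**
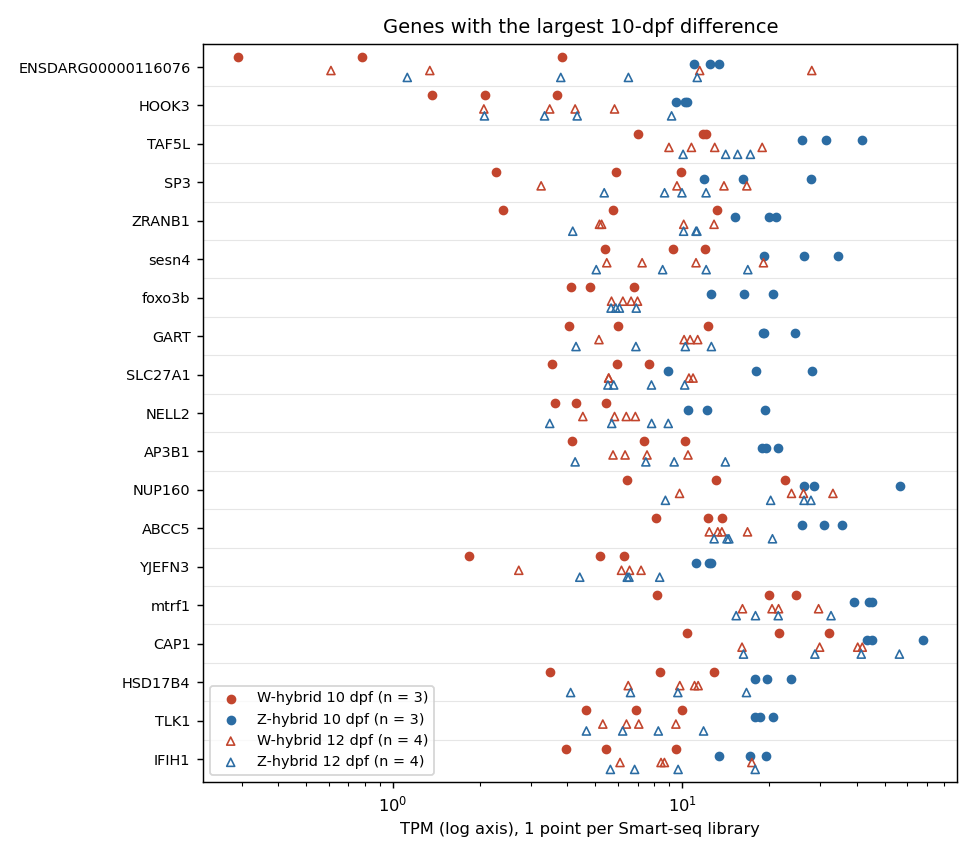
TPM (log axis) of genes among the 20 with the largest 10-dpf difference, 1 point per Smart-seq germ cell library, for the W-hybrid (red) and Z-hybrid (blue) at 10 dpf (filled circles, n = 3 each) and 12 dpf (open triangles, n = 4 each). In each row the 10-dpf Z-hybrid points lie to the right of the 10-dpf W-hybrid points, while the 12-dpf points of both hybrids lie mixed with each other.

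The first gene in rank has no symbol. ENSDARG00000116076 was at 0.29, 0.78 and 3.85 TPM in the 10-dpf W-hybrid and at 13.3, 12.4 and 10.96 TPM in the Z-hybrid. At 12 dpf it spread from 0.61 to 28.0 TPM in the W-hybrid and from 1.12 to 11.3 TPM in the Z-hybrid, so that the ranges of both hybrids overlapped the 10-dpf ranges of both. It was also high in trunk, at 207 and 47.0 TPM. The members of highest abundance were TKTL2, a transketolase-like enzyme, at 177, 145 and 247 TPM in the W-hybrid and at 488, 351 and 326 TPM in the Z-hybrid, then PNRC2, C7H11orf68, PSMD3 and ENSDARG00000098983.

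From 10 to 12 dpf the Z-hybrid fell towards the W-hybrid and the W-hybrid rose by less. This change uses the libraries that chose the genes and is given without a test. A large 10-dpf difference and a small 12-dpf difference were both required. The choice therefore favoured a fall in the Z-hybrid, a rise in the W-hybrid and 12-dpf means between the 10-dpf means. The genes set beside them were not chosen in that way, so the distance from them is not read as a result. In the Z-hybrid the mean log2(TPM + 1) at 12 dpf was below that at 10 dpf for 149 of the 150 genes, with a median change of -0.79 beside -0.17 for all genes at the minimum and -0.41 for the other genes of the longest of 4 equal length classes. In the W-hybrid it was above for 138 genes, with a median change of 0.32 beside -0.07 and 0.03. For 135 genes both 12-dpf means lay between the 10-dpf means of the hybrids. Both lay below the 10-dpf W-hybrid mean for 7 genes (ENSDARG00000088258, GDPD5, hcn2b, GLB1L, meis3, SPATA2 and FBXO3). The largest falls in the Z-hybrid were those of ENSDARG00000088258 (-1.38), sesn4 (-1.32), L3MBTL1 (-1.29) and GART (-1.28). The median of the 12-dpf difference between the hybrids was -0.01, and the ranges of the hybrids overlapped at 12 dpf for all 150 genes. The 12-dpf window of the rule also fixed the calls of edgeR's quasi-likelihood test on these libraries, which were 0, with 0 at an unadjusted p under 0.05 and 0 called by DESeq2. These stand beside 0.0648% of all genes tested called Z-higher and 0.0797% W-higher. The shares of genes at the minimum were 0.103% and 0.0459%, and those of the longest class were 0.0458% and 0%.

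A property that the rule did not use was gene length, and the 150 genes were long. Their median length in the deposited tables was 2638 bases, beside 1809 bases for all genes at the minimum, and 77 of them (51.3%) were in the longest of 4 equal classes of those genes. The 10-dpf difference of the other genes also rose with length. Its median was -0.13 in the shortest class, -0.01 in the second, 0.18 in the next and 0.41 in the longest. At 12 dpf by Smart-seq these medians were -0.03, 0.07, 0.12 and -0.02, with no such order. Within the 10-dpf W-hybrid the other genes of the longest class had means of 4.41, 4.12 and 4.61, in the same order over the libraries as the 150 genes. When a smooth trend over length was taken out of each library, a step chosen after seeing the data, the median 10-dpf difference of the 150 genes was 0.83, all 150 stayed above 0, 145 had every Z-hybrid library above every W-hybrid library, and 98 would have been chosen again. The 42 members at or under the median length had library means of 3.62, 3.12 and 3.95 in the W-hybrid and 4.92, 4.72 and 4.64 in the Z-hybrid. These values come from the libraries that chose the genes, so a difference above 0 was close to fixed by the choice. Of the 8738 genes at the minimum, 2065 were separated at 10 dpf, and 1395 after the trend was taken out. The part of transcript length in the remaining difference was not tested.

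**Figure D3:**
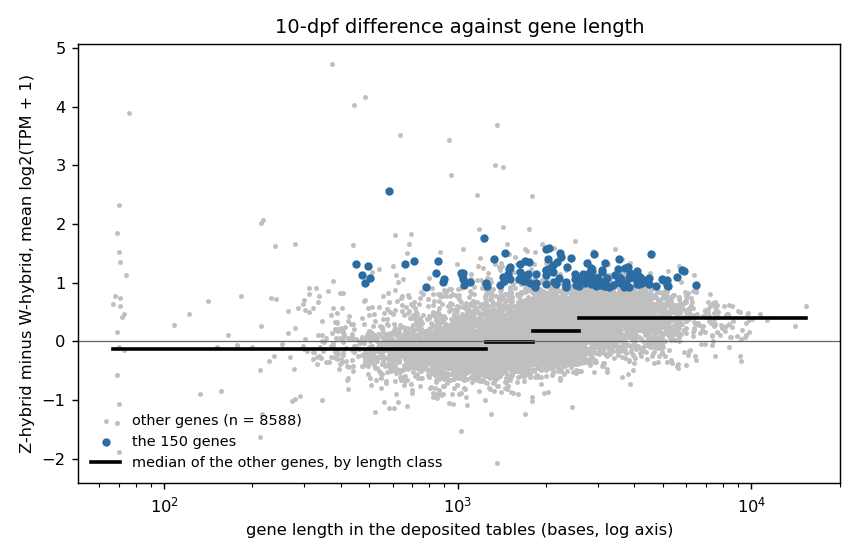
Z-hybrid minus W-hybrid difference in mean log2(TPM + 1) at 10 dpf (y axis) against gene length in bases (x axis, log scale) for the 150 genes (blue) and the other 8588 genes at 10 TPM or more in the Z-hybrid (grey), with the median of the other genes in each length class as a black line. The lines climb from -0.13 to 0.41, and the 150 genes lie at 0.92 or above over the whole range of lengths from 450 to 6479 bases.

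The Quartz-seq libraries were not used to choose the genes. They tested whether the hybrids differed in them at 12 and 14 dpf, with 2 W-hybrid libraries against 1 Z-hybrid library at each age in a single fit, so that a Z-hybrid library was assumed to vary like the W-hybrid ones and the p-values measure only the spread between these libraries. The TPM values of the 150 genes differed between the methods: the median over genes of the 12-dpf W-hybrid mean was 50.5 TPM, beside 11.04 TPM by Smart-seq, and 125 genes were above every Smart-seq library of that group in both Quartz-seq libraries. All genes at the minimum had medians of 36.8 TPM by Quartz-seq and 30.8 TPM by Smart-seq. The count behind the 125 was not taken over all genes. Among the other genes, those of the longest class were above those of the shortest by 1.02 to 2.09 in every Quartz-seq library. They were below them by 1.44 to 2.30 in every Smart-seq germ cell library. The difference in level between the methods is therefore given as a value of each method. Hybrids and ages are compared within a method. Within Quartz-seq, the longest class was above the shortest by 2.09 and 1.90 in the Z-hybrid libraries at 12 and 14 dpf. In the W-hybrid libraries it was above by 1.02 to 1.47. The part of gene length in the Quartz-seq calls was not tested.

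At 12 dpf by Quartz-seq, 26 of the 149 genes tested were Z-higher and 20 were W-higher. These are 17.4% and 13.4%, beside 8.14% and 13.3% of all genes tested, 6.91% and 27.3% of genes at the 10-TPM minimum, and 15.7% and 21.0% of the longest class of those. The share of Z-higher calls was thus close to that of the longest class as a whole. That class includes 77 of the chosen genes, and the rest of the chosen genes are shorter. The share among unchosen genes matched to them in length was not counted, so this closeness is not read as an effect of length. The median log2 fold change of Z over W was 0.24, beside -0.33 for all genes tested and -0.07 for the longest class. At 14 dpf, 20 genes were Z-higher and 4 W-higher, or 13.4% and 2.68%, beside 4.95% and 4.23% of all genes tested, 7.5% and 6.2% of genes at the minimum and 15.9% and 4.4% of the longest class. The median was 0.37, beside -0.31 for all genes tested and 0.23 for the longest class. Scaled by library size without TMM, the 14-dpf calls were 9 and 9 and the medians 0.04 and -0.64. The distance of the genes from all genes was 0.68 in both scalings. Scaling shifts all genes nearly alike, so this distance could hardly change and says nothing about the calls. The 26 calls at 12 dpf fell to 16 without W-hybrid replicate 2, and the 20 Z-higher calls at 14 dpf became 32 without W-hybrid replicate 1 and 13 without replicate 2.

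Muscle genes moved in 1 of these libraries: the summed TPM of the 33 muscle genes was 1416 in 1 and 5822 in the other of the 12-dpf W-hybrid libraries, and between 1041 and 1446 in the other 4. That of gonadal somatic cell genes was 7530 in the 14-dpf Z-hybrid library and between 4132 and 5197 in the other 5. The part of these cells in the calls was not tested.

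PSMD3 had the largest Z-higher call at 12 dpf. It was at 20.5 and 18.9 TPM in the W-hybrid against 115 TPM in the Z-hybrid (log2 fold change 2.38, SE 0.36, adjusted p = 0.000996). At 14 dpf it was at 32.6 and 27.7 TPM in the W-hybrid and at 61.6 TPM in the Z-hybrid (1.27, SE 0.36, adjusted p = 0.0419). The Z-hybrid library was above both W-hybrid libraries at each age. In 8 of 10 alternatives the 14-dpf call held.

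ANXA11, a calcium-dependent phospholipid-binding protein, was at 371 and 317 TPM in the W-hybrid and at 1185 TPM in the Z-hybrid at 12 dpf (log2 fold change 1.67, SE 0.31, adjusted p = 0.00287). At 14 dpf it was at 348 and 248 TPM and at 1137 TPM (2.26, SE 0.31, adjusted p = 0.00168). Both calls held in 10 of 10 alternatives. By Smart-seq at 12 dpf the same gene was between 36.0 and 83.6 TPM in the W-hybrid and between 37.8 and 92.5 TPM in the Z-hybrid, with overlapping ranges.

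The chromatin reader trim24 was at 57.6 and 51.1 TPM in the 12-dpf W-hybrid and at 217 TPM in the Z-hybrid (1.83, SE 0.34, adjusted p = 0.00254). At 14 dpf it was at 57.9 and 36.8 TPM and at 144 TPM (1.83, SE 0.34, adjusted p = 0.00584). L3MBTL1, which binds methylated histone lysines, was at 66.0 and 54.4 TPM and at 164 TPM at 12 dpf (1.28, SE 0.35, adjusted p = 0.0201), and at 50.9 and 37.5 TPM and at 121 TPM at 14 dpf (1.69, SE 0.35, adjusted p = 0.0105). Both genes were higher in the Z-hybrid library at both ages. PNRC2, a factor of mRNA decapping, was at 363 and 294 TPM in the W-hybrid against 869 TPM in the Z-hybrid at 12 dpf (1.25, SE 0.33, adjusted p = 0.0173).

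In all, 12 genes were called Z-higher at both ages, 46.2% of the 26 at 12 dpf and 60.0% of the 20 at 14 dpf. Beside PSMD3, ANXA11, trim24, L3MBTL1 and PNRC2 these were atad3, a mitochondrial membrane ATPase, taf4a, a subunit of the general transcription factor TFIID, CASTOR2, a regulator of the mTOR pathway, the actin-associated PDLIM5, and C7H11orf68, TMEM39A and FAM110B. In level, atad3 was at 301 and 247 TPM in the 12-dpf W-hybrid and at 1027 TPM in the Z-hybrid, and at 301 and 213 TPM and 528 TPM at 14 dpf. For 48 of the 150 genes the Z-hybrid library was above both W-hybrid libraries at both ages, and for 25 it was below both at both ages. At 12 dpf alone it was above both for 56.7% and below both for 32.7%, beside 32.0% and 55.9% of genes at the minimum. At 14 dpf these shares were 46.0% and 32.7%, beside 29.8% and 53.7%. Shares of all genes called or separated at both ages were not counted.

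Other Z-higher calls held for 1 age. At 12 dpf these included zgc:158270, at 146 and 144 TPM in the W-hybrid against 700 TPM in the Z-hybrid, the cation channel gene hcn2b, at 15.5 and 20.4 TPM and 92.0 TPM, the SP3 gene ENSDARG00000001549, at 7.29 and 5.56 TPM and 31.4 TPM, and PGGT1B, a subunit of a protein geranylgeranyl transferase, at 18.99 and 15.8 TPM and 74.4 TPM. At 14 dpf these included bbc3, at 25.7 and 27.4 TPM in the W-hybrid against 54.8 TPM in the Z-hybrid (log2 fold change 1.28, SE 0.31, adjusted p = 0.0234). Its 12-dpf levels were 34.9 and 39.7 TPM and 60.8 TPM (0.54, SE 0.32, adjusted p = 0.237). The Z-hybrid library was the highest at both ages, and only the 14-dpf difference passed the test. The change of the difference between the ages did not pass it (adjusted p = 0.318). The largest call at 14 dpf was that of ENSDARG00000088258, a gene with no symbol, at 26.96 and 22.4 TPM and 121 TPM (2.58, SE 0.62, adjusted p = 0.0205), followed, among genes not yet named, by cfap36, named for cilia and flagella (1.55, SE 0.45, adjusted p = 0.0443).

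The W-higher calls at 12 dpf were led by MKRN2, a ubiquitin ligase of the makorin family, at 10.9 and 9.37 TPM in the W-hybrid against 0.70 TPM in the Z-hybrid (-4.65, SE 1.01, adjusted p = 0.00616). At 14 dpf it was at 9.05 and 4.06 TPM and 7.15 TPM, within the W-hybrid range. The forkhead gene foxo3b was at 9.04 and 10.3 TPM and 0.93 TPM at 12 dpf (-3.54, SE 0.60, adjusted p = 0.00176), and at 4.78 and 4.96 TPM and 11.13 TPM at 14 dpf (1.43, SE 0.46, adjusted p = 0.0660). The deubiquitinase OTUD7B was at 26.3 and 21.4 TPM and 2.86 TPM at 12 dpf (-3.14, SE 0.47, adjusted p = 0.000880), and at 29.9 and 24.6 TPM and 36.1 TPM at 14 dpf (0.66, SE 0.37, adjusted p = 0.267). For these genes a low level in 1 Z-hybrid library at 12 dpf was not found in that at 14 dpf. The change of the difference between the ages was larger than the spread for each (adjusted p = 0.0184 for MKRN2, 0.00268 for foxo3b and 0.00270 for OTUD7B). The 12-dpf Z-hybrid library held 4.69 counts of MKRN2 and 25 of foxo3b, so their calls and changes rest on few counts. It also had the lowest total of the Quartz-seq libraries, 13828829 counts, against 25610705 or more in the others. Both Z-hybrid Quartz-seq libraries held fewer genes with at least 10 counts, 16597 at 12 dpf and 16617 at 14 dpf. The W-hybrid ones held 18966 to 20378, although the 14-dpf Z-hybrid library had a total of 30748551 counts. The part of this in the Quartz-seq calls was not tested.

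PHLDA3 was at 5.51 and 19.99 TPM in the 12-dpf W-hybrid against 1.75 TPM in the Z-hybrid (-3.03, SE 0.99, adjusted p = 0.0414), opposite to its 10-dpf Smart-seq difference, with the W-hybrid libraries themselves far apart. The 12-dpf Z-hybrid library held 14 counts of PHLDA3. KHK, which phosphorylates fructose, was W-higher at both ages, at 9.24 and 14.1 TPM and 1.12 TPM at 12 dpf (-3.55, SE 1.06, adjusted p = 0.0293) and at 7.21 and 17.0 TPM and 0.62 TPM at 14 dpf (-3.82, SE 1.05, adjusted p = 0.0363). It held in 8 of 10 alternatives at each age. Among the other W-higher calls at 14 dpf were ankmy1 (-2.32, SE 0.47, adjusted p = 0.00981) and herc56.3 (-2.18, SE 0.62, adjusted p = 0.0427).

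Of the 149 genes, 14 (9.4%) changed their difference between the ages at an adjusted p under 0.05, with no minimum fold, beside 12.2% of all genes tested. Within the W-hybrid, 0 of the 149 genes were called between 14 and 12 dpf, with 5 at an unadjusted p under 0.05 and 0 called by DESeq2. The count at an unadjusted p under 0.05 was 16 without the 14-dpf replicate 1 and 1 without the 12-dpf replicate 1, with 0 calls in each. This stands beside 0.013% of all genes tested called higher at 14 dpf and 0% at 12 dpf. A pair of low members gave bounds alone: in the 12-dpf Z-hybrid library lyplal1 and rab11fip1b had 0 counts, which against a floor of 3 counts per library is at least 3.68-fold and at least 4.57-fold lower than the W-hybrid mean. The medians above were the same with these genes set to their bounds.

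**Figure D4:**
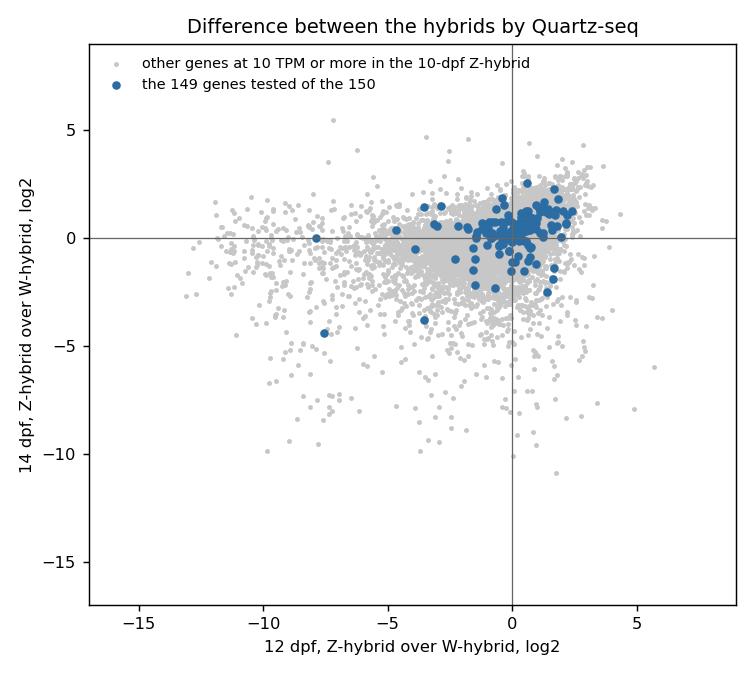
Log2 fold change of the Z-hybrid over the W-hybrid by Quartz-seq at 12 dpf (x axis) and 14 dpf (y axis) for the 149 of the 150 genes tested (blue) and the other genes at 10 TPM or more in the 10-dpf Z-hybrid (grey), 1 point per gene, from 1 Z-hybrid and 2 W-hybrid libraries at each age. The 150 genes spread over all quadrants, with more of them to the right and above 0 than among the grey points (medians 0.24 and 0.37, beside -0.60 and -0.07 for all genes at the minimum).

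In trunk the 150 genes had a median of 6.78 TPM over genes, beside 14.2 TPM for all genes at the minimum, which was itself set on the 10-dpf Z-hybrid germ cells. Both trunk libraries were below every 10-dpf W-hybrid library for 62 of the 150 genes. Below 1 TPM in both trunk libraries were 15 genes (10.0%, beside 7.60% of all genes at the minimum), among them NELL2, YJEFN3, L3MBTL1, hcn2b and herc56.3. Below 5 TPM in both were 49 (32.7%, beside 20.2%). The 150 genes were also lower than all genes at the minimum in the germ cells. Their medians were 9.31 against 31.9 TPM in the 10-dpf W-hybrid and 20.2 against 35.5 TPM in the Z-hybrid. A fixed TPM limit in trunk does not allow for this, so these shares are not read as a trait of this set. Both trunk libraries were above every 10-dpf Z-hybrid library for 7 genes, among them ENSDARG00000116076, si:dkey-176g1.6, si:ch211-188p14.4, CCN1, RXRA and PNRC2. The highest was PNRC2 at 722 and 824 TPM. Neither the 62 nor the 7 was counted over all genes at the minimum, so neither is read as a trait of this set. The gene si:dkey-176g1.6 was at 137 and 231 TPM in trunk and at 15.7, 15.4 and 16.3 TPM in the 10-dpf Z-hybrid, and it was too low for the Quartz-seq test, with 0 counts in both Z-hybrid libraries. TKTL2 was at 190 and 78.4 TPM, and the G protein subunit gene gnb1a at 144 and 120 TPM. The trunk libraries differed from each other, with means over the 150 genes of 3.33 and 2.65 on the log2 scale, the first above the lowest 10-dpf W-hybrid library at 3.07.

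**Figure D5:**
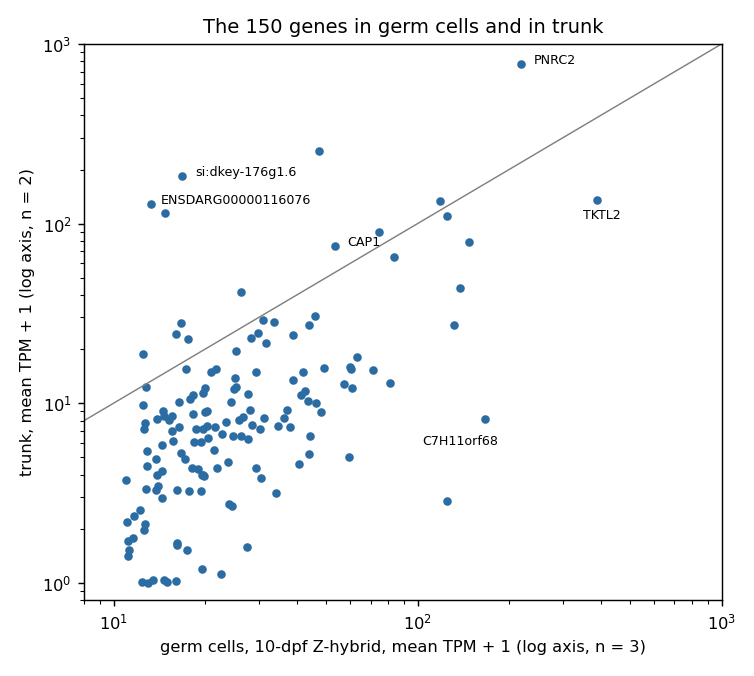
Mean TPM + 1 of each of the 150 genes in the 10-dpf Z-hybrid germ cells (x axis, log scale, n = 3 libraries) and in trunk (y axis, log scale, n = 2), with a line of equal values. Most points lie below the line, and PNRC2, si:dkey-176g1.6 and ENSDARG00000116076 lie far above it.

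Pathway lists held few of the 150 genes, 5 in all. The counts of calls in these lists are read beside the 4.07% Z-higher and 3.06% W-higher of all genes tested at 10 dpf, and none was tested as a list. In the cell death list, 27 genes were tested at 10 dpf by Smart-seq, of which 4 were called Z-higher (among them BIRC2 and the members bbc3 and PHLDA3) and 2 W-higher (cycsb and bida), with a median log2 fold change of 0.22 beside 0.04 for all genes tested. In the chromatin list 4 of 59 were Z-higher, among them the member HDAC6, and 1 W-higher, with a median of 0.33 and a median length of 3825 bases. In the ubiquitin and proteasome list 3 of 49 were Z-higher and 2 W-higher, with a median of -0.28, so that PSMD3 and PSMD1 were higher while PSMA5 and PSMD12 were lower in the Z-hybrid. In the innate immune list 3 of 43 were Z-higher (IFIH1, STAT3 and nfkb2) and 2 W-higher (MYD88 and IRF7). Of 75 cytosolic ribosomal protein genes and 76 respiratory chain genes, 0 were Z-higher, and 0 and 3 were W-higher, with medians of -0.10 and -0.29 and median lengths of 652 and 748 bases.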

How the data were processed

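Germ cells of W- and Z-hybrids and trunk cells were measured in 22 libraries. The authors aligned reads with STAR 2.7.7a to GRCz11 and quantified genes with RSEM 1.3.1, per the labels. The expected counts that the authors deposited are estimates that need not be whole, since RSEM shares reads between genes, and the TPM values they deposited divide by effective length and sum to the same total in each library. The gene length column is another deposited value. Library preparation follows the description labels and the study's methods.

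Expected counts were rounded and tested in R 4.3.3 with edgeR 4.0.16 (TMM, filterByExpr, robust quasi-likelihood fit, Benjamini-Hochberg p-values adjusted across every tested gene). Calls required 1.5-fold or more, a mean above 5 TPM in the higher group and an adjusted p below 0.05. DESeq2 1.42.0, library size alone, other filters, other sets of libraries, a replicate term, a lowess trend over gene length and leaving out each library in turn were alternatives. The unnumbered Quartz-seq batches were taken as replicate 1. Symbols come from a table that names 90.4% of the 32057 genes. SE is the log2 fold change over the root of the F statistic. The fits were tested on simulated data. The genes named are the 20 with the largest difference, the 3 inside and outside the boundary, the 5 highest in the Z-hybrid and in trunk, members of a list, and up to 5 calls in each direction by Quartz-seq at each age; others illustrate roles. Members and lists were chosen with earlier results of these data known. Replicates are separate libraries by their labels; counting precision follows the total counts, and PCR copies were not marked. Some results that the rule for named genes covers are not reported here.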

Additional observations from a re-analysis of the deposited data

Results flagged for a closer look

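In 3 of 90 groups of 4 Smart-seq libraries looked at, 1 library lay far from the other 3, fewer than the 1 in 20 that chance gives. HDAC6 was at 22.6 TPM in W-hybrid replicate 1 at 12 dpf, above the other 3. In the same library ankmy1 was at 9.62 TPM, above the other 3. ZRANB1 was at 4.18 TPM in Z-hybrid replicate 3 at 12 dpf, below the other 3.

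By Quartz-seq, the difference between the hybrids changed from 12 to 14 dpf for 5 named genes with a call, in the interaction test of the 6-library fit. The change on the log2 scale was 4.97 for foxo3b, 1.90 for ABCC5, 5.02 for MKRN2, 3.40 for si:ch1073-170h8.3 and 3.80 for OTUD7B. Each had a lower relative level in the Z-hybrid library at 12 dpf than at 14 dpf, and each age has 1 Z-hybrid library. That at 12 dpf held 4.69 counts of MKRN2, 25 of foxo3b, 27.6 of si:ch1073-170h8.3 and 512 of ABCC5.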

How the results depend on the processing

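Of 115 values under an alternative, 90 stayed within 1.5 times the count or within the spread of the libraries, and 25 did not. The 90 include counts at 10 and 12 dpf by Smart-seq that the choice of genes fixed. They also include counts of 0 between 14 and 12 dpf in the W-hybrid, where 3 of 23154 genes were called in the main fit. The tally is therefore no measure of how stable the other values are. Of the 150 genes, 75 were chosen again with a TPM minimum of 20, 77 with a 12-dpf window of 0.1 and 98 with the length trend taken out, and 85 to 131 when 1 library was left out. Calls at 10 dpf fell from 131 to 17 with all 14 Smart-seq libraries in the fit and were 61 to 143 when 1 library was left out. At 12 dpf by Quartz-seq the range when 1 library was left out was 16 to 32 Z-higher, 14 to 23 W-higher and 0.11 to 0.35 for the median, which was 0.43 with DESeq2, 0.34 with at least 10 counts in every library and 0.43 without the length trend. At 14 dpf it was 13 to 32 Z-higher, 4 to 7 W-higher and 0.22 to 0.53 for the median. With library size alone the 14-dpf values were 9 Z-higher, 9 W-higher and a median of 0.045, and without the length trend the median was 0.62. The 4 W-higher calls were 10 with DESeq2, 8 with no filter on low counts and 9 with all 20 germ cell libraries. When a Quartz-seq library was left out, 1 library stood alone and was assumed to vary like the others. The cause of these shifts was not tested.

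In every fit that left out 1 library, 14 of the 26 and 11 of the 20 calls at 12 dpf were kept, and 12 of the 20 and 1 of the 4 at 14 dpf. Replicate numbers were not taken to pair the Smart-seq libraries. Deviations of same-numbered libraries correlated at -0.04, 0.09 and -0.20 at 10 dpf, and 0.22, 0.26, 0.07 and -0.00 at 12 dpf. Those of libraries with different numbers correlated at -0.19 to 0.22 at 10 dpf and at -0.27 to 0.34 at 12 dpf. These values do not settle whether the libraries at 12 dpf were paired. Among the Quartz-seq W-hybrid libraries those with the same number correlated at 0.38, over fewer pairs than were required to take the numbers as pairing. With 2 libraries at each age this is a single value, mirrored at -0.38 for different numbers. With the replicate block, 139 genes were called at 10 dpf, 0 at 12 dpf and 0 between 14 and 12 dpf in the W-hybrid, with 21 at an unadjusted p under 0.05 against 5 without it. Precision was limited by 1 Z-hybrid library at each Quartz-seq age.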
